A study of Mus musculus with 3 samples.

Results

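The complement and coagulation genes without serpins are 44 genes named by symbol, all of them found once among the 39179 genes of the deposited table. Their values were compared across 3 populations of mouse cells that were differentiated from 1 embryonic stem cell line, sorted by fluorescence and sequenced as 1 library per population. The line reported contactin 2 (Cntn2, found in the Purkinje fibres of the heart) with eGFP and, through a lentivirus, activity of the aMHC promoter (Myh6, a heart muscle myosin) with mCherry. All cells received sodium nitroprusside, a nitric oxide donor, at day 4 of differentiation and were separated at day 25, so no population was untreated. GFP denotes cells positive for eGFP and dim for mCherry, MHC denotes cells positive for mCherry, and NEG denotes cells negative for both reporters. The series describes the GFP cells as resembling cardiac Purkinje fibre cells, and no other cell type is given for MHC or NEG.

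Complement is a cascade of secreted proteases and binding proteins that tags surfaces for removal and can end in a membrane pore. Coagulation is a parallel protease cascade that forms fibrin, and plasminogen activators start its breakdown by activating plasminogen. The liver supplies most of both systems in plasma, while fibroblasts, mesothelial cells, endothelium and macrophages also make many of the components.

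Values are read counts divided by 1 size factor per library. Whole reads recovered from them, summed over all genes, ranged from 47289405 to 52826956 per library. Shares of a library's reads are shares of this sum. With 1 library per population there is no replicate check and no p-value, and the range in parentheses after each fold is its exact 95% interval, which covers counting error only. A gene was counted as higher or lower where log2(value + 1) differed by at least 1, that is 2-fold, and the larger value reached 20. This sorts genes by size of difference without testing them. The reporter gene Cntn2 stood at 10045 in GFP beside 228 in MHC and 204 in NEG. Myh6 stood at 4694 (GFP), 186924 (MHC) and 3843 (NEG), so its level in GFP was near that in NEG. In such bulk libraries, fewer cells of a type and less RNA per cell cannot be told apart.

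GFP stood apart from both other populations for most of the expressed members. Against MHC, 15 of the 32 members counted were higher in GFP, 8 were lower and 9 lay within 2-fold, and the remaining 12 of the 44 stayed under a value of 20. Over all genes, 31.9% of 20879 differed in that comparison, 15.6% higher and 16.4% lower. Against NEG, 17 of 32 members were higher in GFP, 9 lower and 6 within 2-fold, where 29.1% of all genes differed, 14.1% higher and 15.0% lower. Between MHC and NEG, 3 members were higher, 4 lower and 25 within 2-fold, beside 10.6% of all genes, 5.35% higher and 5.21% lower. Both GFP comparisons share the GFP library. The members were chosen with earlier results of these data known, so their shares do not test the group against all genes. The highest of the 3 values lay in GFP for 18 members, in MHC for 9 and in NEG for 5, beside 41.8%, 31.2% and 27.0% of all genes.

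The median log2(value + 1) ratio of the 35 members with a mean of 10 or more was 0.69 for GFP over MHC, 1.25 for GFP over NEG and 0.14 for MHC over NEG. The same median over 22235 genes was −0.00, 0.01 and −0.01. Single members ranged from −4.82 to 4.47 for GFP over MHC, in both directions. Together they took 1.60% of the GFP library's reads, 0.286% of those of MHC and 0.218% of those of NEG. C3 alone held 0.832% in GFP.

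**Figure D1:**
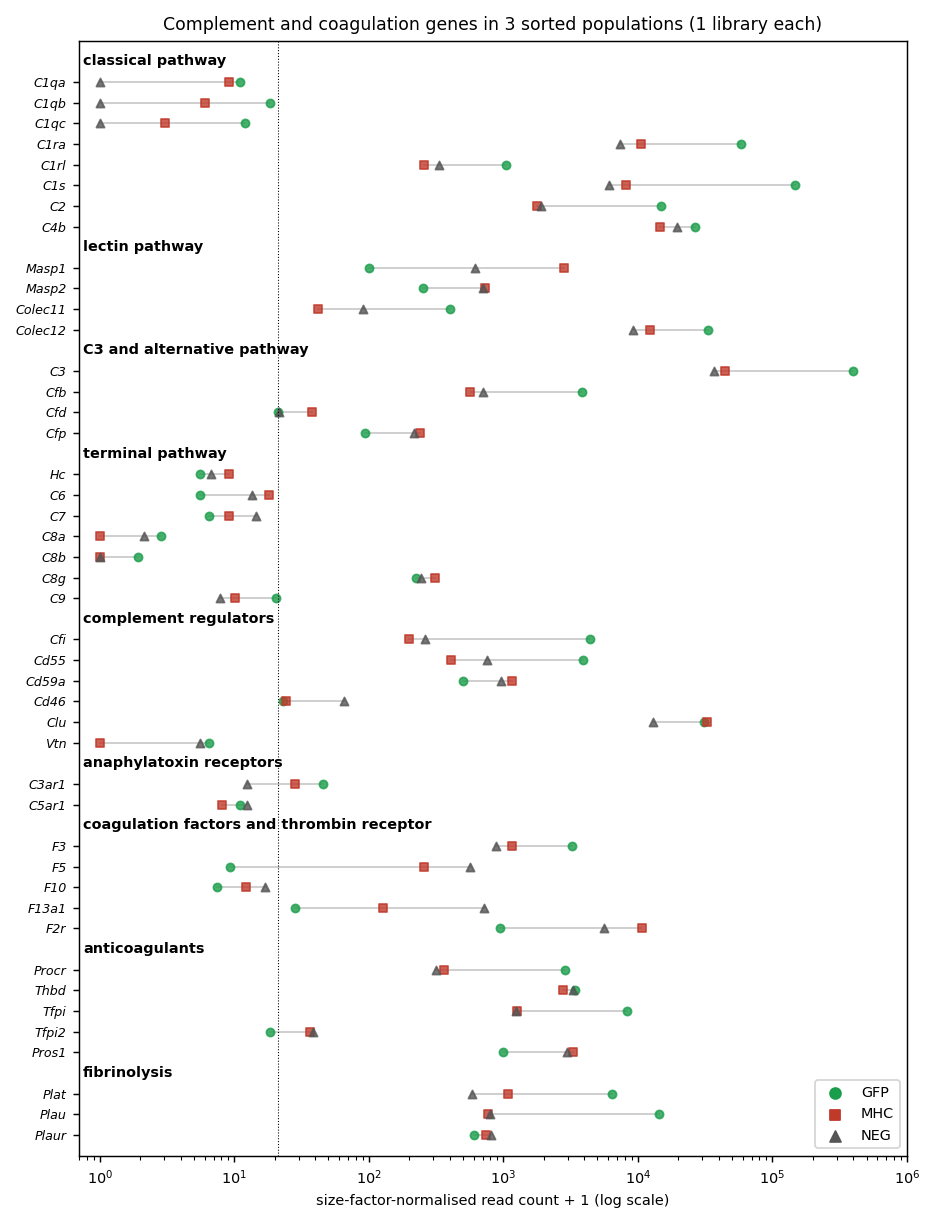
Size-factor-normalised read count plus 1 on a log axis for all 44 members, ordered by role, with 1 point per library (GFP circles, MHC squares, NEG triangles) and a dotted line at a value of 20. The GFP points lie far to the right for C3, C1s, Plau and Cfi and to the left for Masp1, F2r and F5, while the MHC and NEG points mostly lie close together.

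C3, the protein on which all complement routes converge and whose cleavage starts opsonisation, was the most abundant member in GFP. C3 (ENSMUSG00000024164, chr17:57203970-57228136, mm10, protein-coding) showed a value of 396084 in GFP, 44076 in MHC, against 36841 in NEG. It was 8.99-fold higher in GFP than in MHC (8.90 to 9.08) and 10.8-fold higher than in NEG (10.6 to 10.9). Its reads made up 0.832% of the GFP library (exact Clopper-Pearson 95% interval 0.829 to 0.834), against 0.0824% of MHC and 0.0690% of NEG. Per kilobase of merged GENCODE M21 exons, the C3 level ranked 4 among 21842 protein-coding genes in GFP, 210 in MHC and 260 in NEG.

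The alternative pathway, which amplifies C3 cleavage, was split between its components. Cfb, the protease of the alternative C3 convertase, counted 3822 in GFP beside 565 in MHC and 699 in NEG, and was 6.76-fold higher in GFP than in MHC (6.19 to 7.40). Cfp encodes properdin, which stabilises that convertase, and its value was 93.2 (GFP), 238 (MHC) and 214 (NEG). Properdin was thus 2.55-fold lower in GFP than in MHC (2.02 to 3.25), opposite to Cfb. Cfd, factor D, which cleaves factor B, stayed low at 20.1 in GFP, 36.5 in MHC, against 20.3 in NEG.

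The proteases of the classical pathway were high in GFP, while the subunits of its recognition molecule were close to undetected. C1s (ENSMUSG00000038521, chr6:124530345-124542359), the protease that cleaves C4 and C2, reached 145842 in GFP beside 8118 in MHC and 6124 in NEG. This was 18.0-fold higher in GFP than in MHC (17.6 to 18.4) and 23.8-fold higher than in NEG (23.2 to 24.5). Its activator C1ra (ENSMUSG00000055172, chr6:124512632-124523440) stood at 57911 (GFP), 10453 (MHC) and 7396 (NEG), 5.54-fold higher in GFP than in MHC (5.43 to 5.66). The C1r-like gene C1rl, next to it, reached 1046 in GFP against 256 in MHC and 329.9 in NEG. C2, which supplies the protease of the classical and lectin C3 convertase, stood at 14918 in GFP, 1779.7 in MHC, against 1898 in NEG, 8.38-fold higher in GFP than in MHC (7.98 to 8.81). C4b, its partner in that convertase, lay within 2-fold, with 26447 in GFP beside 14526 in MHC and 19361 in NEG, a ratio of 1.82 to MHC and 1.37 to NEG. The C1q chains that bind antibody complexes gave few reads. C1qa, C1qb and C1qc had 11, 19 and 12 reads in GFP, then 8, 5 and 2 in MHC, against 0 each in NEG, where 3 reads are a value of 3.39.

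Per kilobase of exons, C1s ranked 20 and C1ra 81 of 21842 protein-coding genes in GFP, C1s 737 and C1ra 554 in MHC, and C1s 944 and C1ra 743 in NEG. Levels of C1s, C2 and Cfb are uncertain because other genes overlap them and no source says whether counting used strand. The antisense gene Gm16567 covers 94.9% of the C1s span and held 85.0% of the C1s value in GFP, 84.8% in MHC and 84.2% in NEG. The gene model Gm20547 runs over 99.4% of Cfb and 54.5% of C2, and was 9.63-fold higher in GFP than in MHC. C2 also overlaps Zbtb12, which was 4.98-fold higher. Without the 6 members that such partners touch, 12 of 26 members were higher in GFP than in MHC and 6 lower. Among all genes with a mean of 10 or more, 35.3% have such a partner. The share of all genes outside 2-fold without them is not given, so this count stands without a background.

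Copies of the classical pathway genes gave ratios close to those of the members. C1rb, a copy of C1ra, showed a value of 36001 (GFP), 6441 (MHC) and 4451 (NEG), 5.59-fold higher in GFP than in MHC (5.44 to 5.74). Gm5077, a copy of C1s that GENCODE M21 names C1s2, stood at 49055 in GFP, 2489 in MHC, against 2038 in NEG, 19.7-fold higher in GFP than in MHC (18.9 to 20.5). C4a held 36.8% of the C4b value in GFP, 37.3% in MHC and 36.0% in NEG. With reads of 50 bases, the level of each copy is uncertain, since no source says how reads matching both were counted.

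C3, C1ra and C1s are the most abundant members that were higher in GFP than in both other populations, and the 250 bases before their start sites are shown to set them side by side, with the copy C1rb beside C1ra. The sequences are RefSeq's for build GRCm38.p6, 5′ to 3′ on the gene's strand, and capitals mark matches to 4 searched motifs. C3 lies at chr17:57228137-57228386 (minus strand), C1ra at chr6:124512371-124512620 (plus), C1rb at chr6:124570180-124570429 (plus) and C1s, listed by RefSeq as C1s1, at chr6:124542360-124542609 (minus).
C3: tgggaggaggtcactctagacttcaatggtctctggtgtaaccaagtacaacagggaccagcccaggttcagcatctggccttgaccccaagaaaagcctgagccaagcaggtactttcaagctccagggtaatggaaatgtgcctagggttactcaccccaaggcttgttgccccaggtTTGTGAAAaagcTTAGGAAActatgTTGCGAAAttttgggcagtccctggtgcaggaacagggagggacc
C1ra: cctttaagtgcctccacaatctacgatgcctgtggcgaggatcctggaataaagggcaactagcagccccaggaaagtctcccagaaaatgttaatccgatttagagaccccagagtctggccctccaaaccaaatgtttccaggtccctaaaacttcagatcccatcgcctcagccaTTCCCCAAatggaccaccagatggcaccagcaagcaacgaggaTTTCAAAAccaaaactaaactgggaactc
C1rb: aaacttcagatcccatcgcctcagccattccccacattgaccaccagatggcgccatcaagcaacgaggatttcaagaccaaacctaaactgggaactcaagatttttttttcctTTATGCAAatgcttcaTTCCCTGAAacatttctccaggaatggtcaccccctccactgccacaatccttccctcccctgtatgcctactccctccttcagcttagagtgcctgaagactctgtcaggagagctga
C1s: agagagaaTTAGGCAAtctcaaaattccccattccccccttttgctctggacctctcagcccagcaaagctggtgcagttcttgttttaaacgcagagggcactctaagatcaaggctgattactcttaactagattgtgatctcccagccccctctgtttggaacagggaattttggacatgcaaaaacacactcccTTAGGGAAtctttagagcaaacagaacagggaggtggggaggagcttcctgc

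The motifs were the TATA box TATAAA, the STAT site TTCNNNGAA, the interferon response element core (GAAA, any 2 bases, GAAA) and the C/EBP-type string TTNNGNAA, each searched on both strands with overlaps between motifs allowed. All capitals are C/EBP-type strings except the STAT match TTCCCTGAA in C1rb. C3 held 3 of these strings, starting 70, 58 and 45 bases before its start site, and C1ra and C1s held 2 each. The string is loose: it occurred in 36.8% of 32851 promoter windows and in 14 of the 33 members with an entry. TATA boxes occurred in 5 of the 33 members and 12.4% of all windows, STAT sites in 5 and 7.02%, and the interferon element core in 2 and 2.98%. The last 99 bases of the C1ra window matched the first 99 of the C1rb window at 93 positions. RefSeq's C1rb start site lies 136 bases inside the table's gene start. A match is a description of letters and not a binding site. Entries for C1qa, C2, C4b, Masp1, Colec12, Cfb, Cfi, Clu, Thbd, Plat and Plau are not used here.

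Of the 4 lectin pathway members, the collectin genes Colec11 and Colec12 were higher in GFP and the protease genes Masp1 and Masp2 lower. Colec12, a collectin of the cell surface, counted 33096 in GFP beside 12185 in MHC and 9128 in NEG, 2.72-fold higher in GFP than in MHC (2.66 to 2.77). The secreted collectin gene Colec11 stood at 399 (GFP), 40.5 (MHC) and 89.2 (NEG), 9.84-fold higher in GFP than in MHC (7.11 to 14.0). Masp1 (ENSMUSG00000022887, chr16:23451785-23520590), a protease that collectins carry, showed the opposite order. Its value was 98.7 in GFP, 2811 in MHC, against 611 in NEG, 28.5-fold lower in GFP than in MHC (23.5 to 34.8) and 6.19-fold lower than in NEG (5.03 to 7.68). Masp1 also separated the other populations, at 4.60-fold higher in MHC than in NEG (4.19 to 5.05). Masp2, which cleaves C4 and C2 in this pathway, had 250.5 in GFP beside 733 in MHC and 699 in NEG. Masp2 is uncertain, because Tardbp overlaps 24.1% of its span with a value of 3781 (GFP), 2954 (MHC) and 3723 (NEG).

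Genes of the terminal pathway, whose products assemble the membrane pore, gave few reads in all 3 libraries. Hc (the gene of C5), C6, C7, C8a, C8b and C9 stayed under 20 everywhere, and the highest of these values was 19.2 for C9 in GFP, with 21 reads there, 9 in MHC and 6 in NEG. C8b had 1 read in GFP and 0 in MHC and NEG. C8g alone passed, at 224 in GFP, 311 in MHC, against 242 in NEG. It is uncertain, since Fbxw5 overlaps 31.6% of its span with a value of 1811 in GFP beside 1616 in MHC and 1681 in NEG.

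Regulators of complement went both ways. Cfi (ENSMUSG00000058952, chr3:129836739-129875328), the soluble protease that inactivates C3b and C4b, reached 4429 (GFP), 199 (MHC) and 259 (NEG). At 22.3-fold higher in GFP than in MHC (19.3 to 25.9), it had the highest ratio of all members in that comparison, and it was 17.1-fold higher than in NEG (15.0 to 19.6). Cd55, the membrane protein that hastens the decay of C3 convertases, stood at 3930.5 in GFP, 405 in MHC, against 752 in NEG, 9.70-fold higher in GFP than in MHC (8.75 to 10.8). Cd59a, which blocks the membrane pore, was lower instead. Its value was 496 in GFP beside 1164 in MHC and 950.0 in NEG, 2.34-fold lower in GFP than in MHC (2.12 to 2.60) and within 2-fold of NEG. Its copy Cd59b was 2.53-fold lower in GFP than in MHC (2.16 to 2.98) and 2.03-fold lower than in NEG (1.72 to 2.41). How reads matching both copies were counted is not given. Clu, the gene of the chaperone clusterin, which also binds late complement components, had 30909.9 (GFP), 32572 (MHC) and 12995 (NEG). Clusterin thus set NEG apart, being 2.38-fold higher in GFP and 2.51-fold higher in MHC than in NEG. Cd46, a cofactor of factor I that in mice is made mainly in the testis, was low at 21.9 in GFP, 23.3 in MHC, against 64.4 in NEG, and Vtn (vitronectin) had 6 reads in GFP, 0 in MHC, against 4 in NEG.

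The receptors for the cleavage products C3a and C5a were low. C3ar1 stood at 44.8 in GFP beside 27.3 in MHC and 11.3 in NEG, 3.96-fold higher in GFP than in NEG (1.98 to 8.78). C5ar1 stayed between 7.09 and 11.3 in all 3 libraries.

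**Figure D2:**
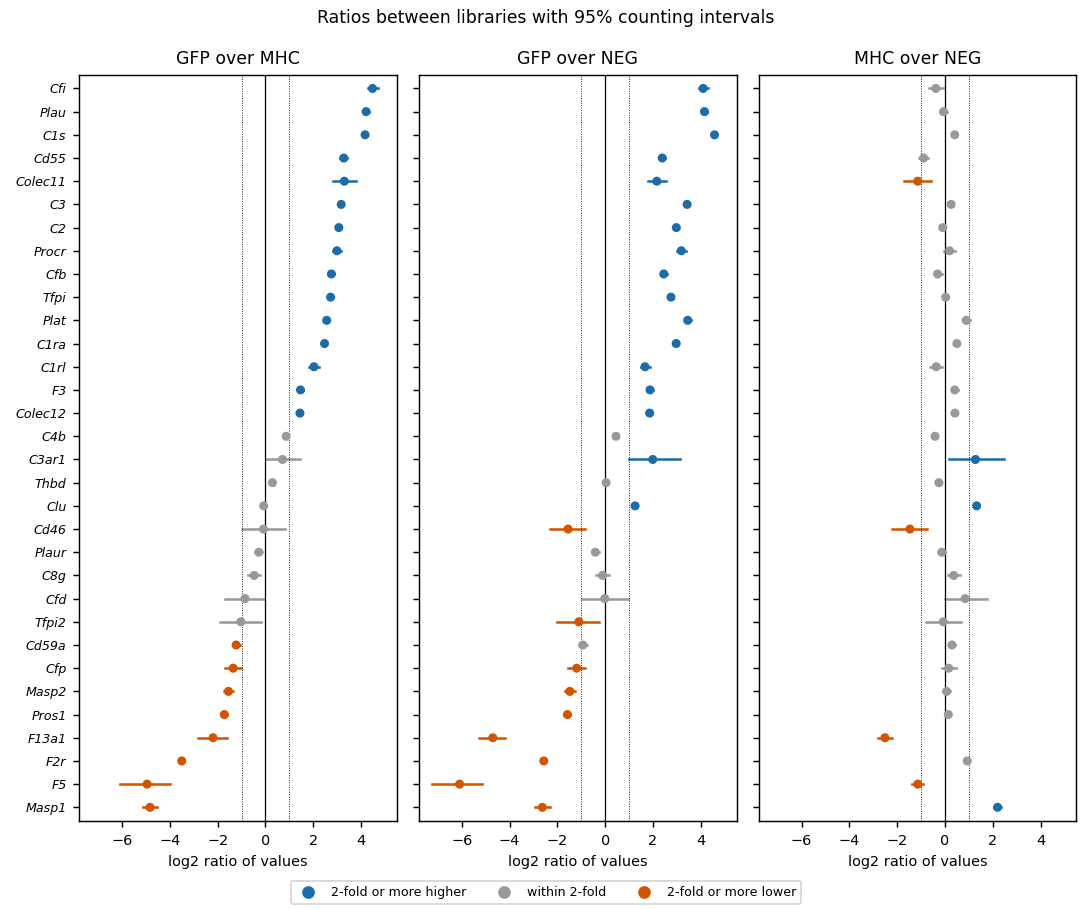
Log2 ratios of the deposited values for the 32 members with a value of 20 or more in any library, with 95% counting intervals as bars, for GFP over MHC, GFP over NEG and MHC over NEG. Colours follow the size rule on the log2(value + 1) scale, and dotted lines mark 2-fold. Ratios in the left and middle panels run from below −4 for F5 to above 4 for Cfi and Plau, while 25 of 32 in the right panel lie within 2-fold.

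Among the coagulation genes, F3 was higher in GFP, and F5, F13a1 and F2r were lower. F3 encodes tissue factor, which starts coagulation, and showed a value of 3218 (GFP), 1166 (MHC) and 878 (NEG), 2.76-fold higher in GFP than in MHC (2.58 to 2.95). F5 (ENSMUSG00000026579, chr1:164151838-164220277), the cofactor of factor Xa, stood at 8.23 in GFP, 255 in MHC, against 561 in NEG. With 9 reads in GFP, it was 31.0-fold lower than in MHC (16.1 to 68.6) and 68.2-fold lower than in NEG (35.7 to 150.1). Gm16548 touches 0.555% of the F5 span and had 455 in GFP beside 16.2 in MHC and 21.5 in NEG, so F5 counts as overlapped, although the ratio of this partner runs the other way. F13a1, the subunit of the enzyme that cross-links fibrin, differed between all 3 populations, at 27.4 (GFP), 126 (MHC) and 716 (NEG). It was 26.1-fold lower in GFP than in NEG (18.1 to 39.0) and 5.70-fold lower in MHC than in NEG (4.70 to 6.97). F2r, the thrombin receptor PAR1, had 945 in GFP, 10728 in MHC, against 5618 in NEG, 11.4-fold lower in GFP than in MHC (10.6 to 12.1). F10 (factor X) stayed under 20, at 7 reads in GFP, 11 in MHC, against 14 in NEG.

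Anticoagulant genes also divided. Tfpi, the inhibitor of the tissue factor pathway, counted 8333 in GFP beside 1261 in MHC and 1237 in NEG, 6.61-fold higher in GFP than in MHC (6.23 to 7.02). Procr, the receptor that presents protein C for activation, stood at 2874 (GFP), 362 (MHC) and 316 (NEG), 7.95-fold higher in GFP than in MHC (7.12 to 8.89). Thbd (thrombomodulin), which turns thrombin towards protein C, was nearly level at 3396 in GFP, 2777 in MHC, against 3312 in NEG. Pros1, the protein S cofactor of activated protein C, was 3.30-fold lower in GFP than in MHC (3.08 to 3.54), with values of 989 in GFP beside 3263 in MHC and 2962 in NEG. Tfpi2 was low, at 17.4 (GFP), 35.5 (MHC) and 37.3 (NEG).

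Both plasminogen activators were higher in GFP, while the urokinase receptor was not. Plau (urokinase, ENSMUSG00000021822, chr14:20836662-20843388) reached 14214 in GFP, 768 in MHC, against 799 in NEG, 18.5-fold higher in GFP than in MHC (17.2 to 19.9) and 17.8-fold higher than in NEG (16.5 to 19.2). Plat (tissue plasminogen activator) stood at 6370.1 in GFP beside 1079.8 in MHC and 583 in NEG, 5.90-fold higher in GFP than in MHC (5.53 to 6.30) and 10.9-fold higher than in NEG (9.99 to 11.97). Plaur, the cell surface receptor that holds urokinase, had 608 (GFP), 739 (MHC) and 810.0 (NEG) and lay within 2-fold in each comparison.

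MHC and NEG were close for most members. The exceptions were Masp1, Clu and C3ar1, higher in MHC, and F13a1, Cd46, F5 and Colec11, lower in MHC, 7 of 32 in all. C3 was 1.196-fold higher in MHC than in NEG (1.18 to 1.21), and C1s 1.33-fold higher (1.28 to 1.37), both within 2-fold. F2r reached a ratio of 1.91 and Plat of 1.85, just inside the limit, and Colec11 at 2.20-fold lower (1.49 to 3.31) stood just outside it.

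**Figure D3:**
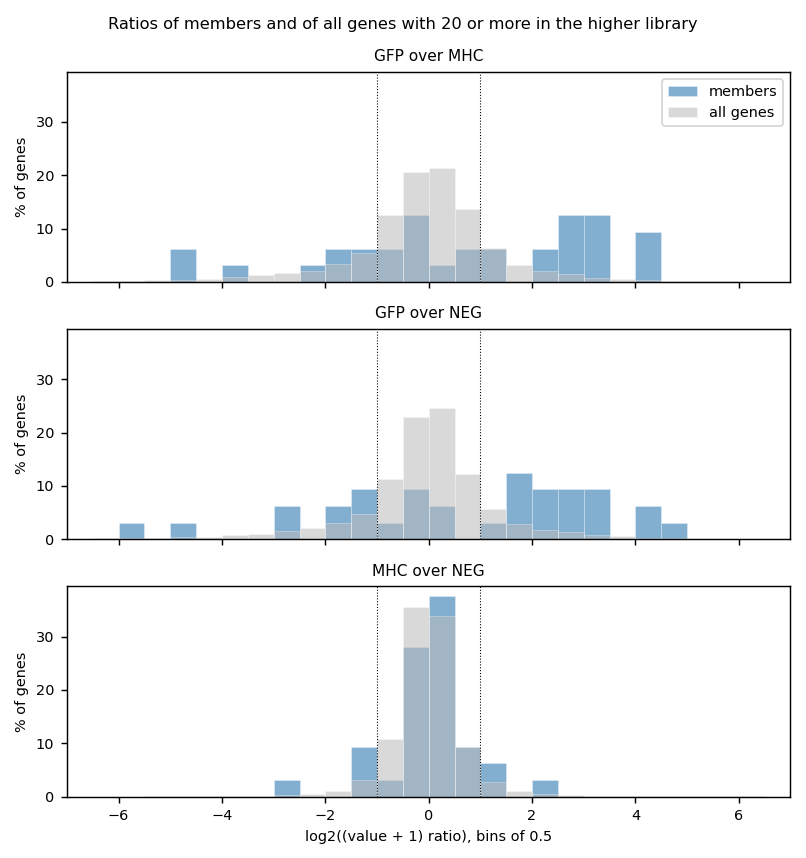
Percent of genes per bin of log2 ratio of (value + 1) for the 32 members counted (blue) and for all genes with 20 or more in the higher library (grey), in 3 panels, with dotted lines at 2-fold. The members spread to both sides of the grey peak in the GFP panels and lie mostly under it for MHC over NEG, where 21.9% of members and 10.6% of all genes were outside 2-fold.

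Other genes of both cascades, 46 in a list apart from the members and without serpins, were counted in the same way. Against MHC, 23 had a value of 20 or more, with 5 higher in GFP, 7 lower and 11 within 2-fold. Over all genes, 15.6% were higher and 16.4% lower. Against NEG, 24 were counted, with 3 higher in GFP, 7 lower and 14 within 2-fold, beside 14.1% and 15.0% of all genes. Between MHC and NEG, 2 of 21 were higher and 3 lower, beside 5.35% and 5.21% of all genes. In all, 22 stayed under 20 in every library, among them prothrombin (F2), F7, F9, plasminogen (Plg) and the fibrinogen genes Fga, Fgb and Fgg. S100a10 and Anxa2, whose products together bind plasminogen at the cell surface, were also counted: S100a10 was 3.18-fold higher (3.01 to 3.36) and Anxa2 3.10-fold higher in GFP than in MHC (3.02 to 3.18). Kng1 (kininogen) and Itgb2, a chain of complement receptor 3, went the same way, Kng1 7.50-fold higher (4.45 to 13.5) and Itgb2 5.98-fold higher (3.68 to 10.3). The bradykinin receptor gene Bdkrb1 was 19.2-fold lower (10.99 to 36.6), the protease inhibitor gene A2m 16.3-fold lower (8.61 to 34.7) and Ggcx, the carboxylase that matures clotting factors, 2.38-fold lower (2.22 to 2.54). Cd93 was 2.40-fold lower in GFP than in NEG (1.93 to 3.01) and 2.44-fold lower in MHC than in NEG (1.94 to 3.08). Between MHC and NEG, Bdkrb1 was 2.69-fold higher (2.06 to 3.54) and Anxa2 2.31-fold lower in MHC (2.25 to 2.38).

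Markers of cell types known to make these proteins were set beside them. Epicardial and mesothelial markers were higher in GFP for 7 of 7, with a summed value of 158099 in GFP, 5671 in MHC, against 5580.5 in NEG, a 27.9-fold higher sum in GFP than in MHC. Of 11 macrophage and haematopoietic markers, 8 of 9 counted were higher in GFP than in MHC, with sums of 10734 in GFP beside 2657 in MHC and 1916 in NEG. Cd14 alone was 7405 of that sum in GFP. Ptprc and Spi1 stayed under 20 in every library, at 10.1 and 8.23 in GFP, and were not counted. Adgre1, the F4/80 antigen of macrophages, had 96.9 (GFP), 14.2 (MHC) and 3.39 (NEG). Of the liver and endoderm markers, Afp and Ttr were higher and Apoa1 and Foxa2 lower in GFP than in MHC. They summed to 116 in GFP, 179 in MHC, against 204 in NEG over 9 genes, and albumin (Alb) had 2.74 in GFP beside 2.03 in MHC and 1.13 in NEG. Of the endothelial markers, 1 was higher and 3 lower in GFP than in MHC, with sums of 679 (GFP), 3078 (MHC) and 2522 (NEG), and Cdh5 stayed at 9.12 or less. Fibroblast markers summed to 1326658 in GFP, 5245543 in MHC, against 5266196 in NEG, with Pdgfra and Dcn higher in GFP than in MHC and 5 lower. Platelet markers summed to 87.8 in GFP beside 224 in MHC and 212 in NEG, of which Itga2b made up most. Heart muscle markers, lower in GFP than in MHC for 6 of 6, summed to 12815 (GFP), 297931 (MHC) and 9088 (NEG). This list holds Myh6, whose promoter drove the mCherry used in the sort, and Myh6 made up most of the MHC sum. The part of all these cell types in the differences of the complement and coagulation genes was not tested.

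**Figure D4:**
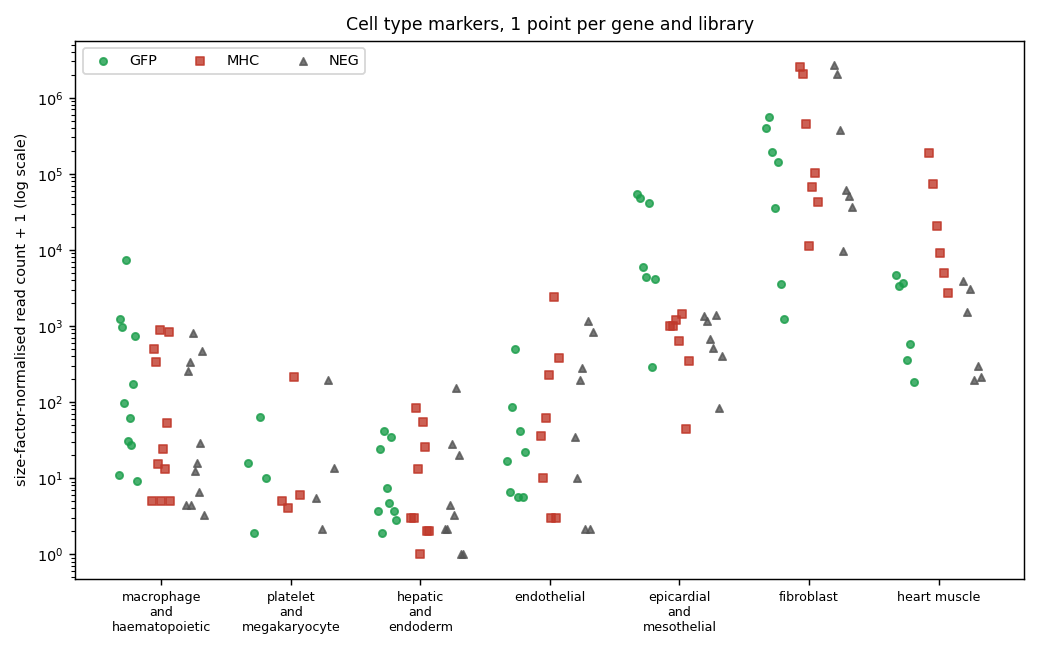
Size-factor-normalised read count plus 1 on a log axis for the genes of 7 marker lists, with 1 point per gene and library (GFP left, MHC middle, NEG right within each list). The epicardial and mesothelial points are higher in GFP, the heart muscle points higher in MHC, and the liver points mostly below 100 in all 3 libraries.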

How the data were processed

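Per the labels' protocols, RNA of sorted cells was made into TruSeq libraries and read as single reads of 50 bases. The tools named in the submitters' processing notes are STAR (2.3.0e), DESeq2 (1.2.10), FastQC (0.11.2) and bedtools (2.17.0), and the build is mm10; what each tool did is not stated. The deposited values are a signal, namely counts of reads that the authors scaled with a size factor for each library. Divided by the value of 1 read (0.914 in GFP beside 1.01 in MHC and 1.13 in NEG), 100% of values came out whole within 0.01. How reads in overlapping genes were counted is not given, so overlapped members are called uncertain. The rule is that an overlapping gene's mean value over the 3 libraries reaches 25% of the member's mean. No column was left unmapped.

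With 1 library per population no count model could be fitted to the recovered reads, so it calls no genes and no p-value is given. Intervals are exact 95% Clopper-Pearson on recovered reads. Reads are not independent molecules, so intervals and limits cover counting error only. The ratio and call computations were tested on simulated reads. Every member is accounted for; those with a value of 100 or more have all values given, and other pathway genes are named at 2-fold or more with a value of 100 or more, except 1 that is not reported here. The members and lists were chosen with earlier results of these data known. Coordinates are the table's, in mm10; exon lengths and strands are GENCODE M21's. Python 3.11.15, pandas 2.3.3, SciPy 1.17.1 and Biopython 1.88 were used. Alternatives covered scaling, pseudocount, value minimum, fold minimum and overlap.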

Additional observations from a re-analysis of the deposited data

How the results depend on the processing

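No paired analysis was possible because each population has 1 library. Each count and median was recomputed under up to 8 alternatives, and none reversed. Of 84 ratios of single members, recomputed under 2 other scalings and 2 other pseudocounts, 2 crossed the 2-fold limit: C4b for GFP over MHC reached 1.03 on the log2 scale when scaled by library total, and Colec11 for MHC over NEG was −0.97 with a pseudocount of 10. Clu for GFP over MHC and C8g for GFP over NEG changed sign within 2-fold. With a fold minimum of 3, 13 members were higher and 5 lower in GFP than in MHC. Against NEG, 16 were higher and 4 lower in GFP, and 1 was higher and 1 lower in MHC than in NEG. Without a minimum value, 6 members were higher and 6 lower in MHC than in NEG. With a minimum of 100, 2 were higher and 2 lower. The shares of all genes under these other minimums are not given, so these counts stand without a background. The members' median log2 ratio was 1.45 for GFP over MHC and 1.76 for GFP over NEG among the 28 members of 100 or more, and 0.78 and 0.69 over all 44. Scaling by library total moved the median of all genes to 0.17 for both GFP comparisons and the members' median for GFP over NEG to 1.42. The share of all genes outside 2-fold was 32.5%, 29.3% and 10.3% for GFP over MHC, GFP over NEG and MHC over NEG among protein-coding genes, chosen after seeing the data. Members with under 20 reads, such as C1q, C8a, C8b, Vtn and F5 in GFP, are limited by counting.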

Other observations

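Several members lie in clusters, and the genes around them, chosen after the members' values were seen, were set beside them. Neighbours were protein-coding genes, and those named Gm and a number were left out of every count. C1rl, C1ra and C1s span 49.2 kb of chr6 (124493113-124542359). Within 100 kb, Pex5, a peroxisomal import receptor gene, lay within 2-fold with 3524 in GFP and 2283 in MHC. Clstn3 was 2.71-fold higher in GFP than in MHC at a low level, and the copy C1rb was higher as given above. The copy Gm5077, left out by its name, also lies within 100 kb and was 19.7-fold higher in GFP than in MHC. C4b, Cfb and C2 lie in 169.9 kb of chr17 in the major histocompatibility complex. Of 19 other protein-coding genes counted within 100 kb there, 7 were higher in GFP than in MHC, 1 lower and 11 within 2-fold. Over all genes, 15.6% were higher and 16.4% lower in that comparison. The median log2 ratio of the 19 was 0.39. Apart from Zbtb12, which overlaps C2, these 7 lay between 2.08-fold and 2.45-fold. The protein-coding gene Gm20547, which overlaps Cfb and C2 and was left out by its name, was 9.63-fold higher in GFP than in MHC.

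Around C3, 2 of 6 neighbours were higher in GFP than in MHC, the cytokine gene Tnfsf14 with 157 in GFP beside 31.4 in MHC and 2.26 in NEG, and Vav1 with 99.6 (GFP), 24.3 (MHC) and 13.6 (NEG). Of 5 counted neighbours of Cfi, all lay within 2-fold between GFP and MHC. Against NEG, Pla2g12a was 2.37-fold and Ccdc109b 2.41-fold lower in GFP, and the others counted lay within 2-fold. Near Plau, Camk2g lay within 2-fold, and Vcl, the gene of the adhesion protein vinculin, had 46604 in GFP, 12803 in MHC, against 10529 in NEG, although another gene overlaps it.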
